A study of Mus musculus with 6 samples.

Results

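Active enhancers and promoters carry acetylation of lysine 27 on histone H3 (H3K27ac), and a large part of the enhancers of a mammalian genome lies inside the introns of genes. The regions described here are the H3K27ac peaks of mouse embryonic stem cells (mESCs) that fell in the second or a later intron of a coding gene, away from every annotated start of a coding or lincRNA transcript. They were chosen by their position and width alone. An autosomal peak was kept if it was under 10000 bp wide, if it overlapped no window of 1 kb either side of the transcription start site (TSS) of any protein-coding or lincRNA transcript, and if its midpoint lay in a later intron of the longest coding transcript of a gene and in no first intron of such a transcript. Of the 22973 peaks in the control list, 3466 met this rule (15.1%), which is 16.6% of the 20922 autosomal peaks under 10000 bp. The other autosomal peaks of that width were 9520 that overlapped a TSS window (promoter peaks), 5462 outside genes (intergenic peaks), 1417 in first introns and 1057 elsewhere in gene bodies.

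H3K27ac was measured by chromatin immunoprecipitation and sequencing (ChIP-seq) in mESCs of the line E14Tg2A, which per the labels carry Rosa26-Cre and Oct4-IRES-Puro and were grown in N2B27 medium with 2i and LIF, which holds the cells in the naive state. For 120 min, the cells received DMSO (the control group), 100 nM NVP-2, which inhibits the kinase CDK9, or actinomycin D (ActD, 1 µg per ml, 800 nM in the labels), a DNA intercalator that stops transcription by RNA polymerases. Each group had 2 replicates, and chromatin of the human line HEK293T was added to every sample as a spike-in. The list used here was made from both control replicates together and gives positions only, so the treated groups were not analysed here, no value has a replicate error, and the number of reads behind each peak is not known here.

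H3K27ac is written mainly by the acetyltransferases CBP and p300, which transcription factors bring to open chromatin. Enhancers can act on a promoter over long distances and need not act on the gene whose intron holds them. In mESCs, the factors OCT4, SOX2, ESRRB, KLF4 and STAT3 bind many enhancers, each at its own short sequence, and CpG islands, which are stretches rich in CG dinucleotides, lie mostly at promoters.

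Sequences of 7 windows are shown because they hold the motifs and the base composition that the results below turn on. Each window with a motif is the match nearest the midpoint of a later-intron peak, with 50 bases on either side, from the GRCm38 reference genome. The match is in capitals. The SOX and KLF windows come from the peaks in pluripotency genes. No peak in those genes held the other motifs at its midpoint, so the octamer, the OCT4-SOX2 core and the ESRRB motif are shown from the 10 genes with the most later-intron peaks, a choice made after the values were seen. The peak in the sixth intron of Msi2, which encodes an RNA-binding protein of the Musashi family, held TTGTNATGC, a core of the joint OCT4-SOX2 site, on the minus strand at chr11:88526844-88526952.
Msi2 OCT4-SOX2 core: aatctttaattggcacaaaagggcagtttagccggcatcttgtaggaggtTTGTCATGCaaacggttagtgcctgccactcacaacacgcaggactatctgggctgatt
A peak in the fifth intron of the same gene held TCAAGGTCA, the site of ESRRB, on the minus strand at chr11:88639372-88639480, and 48.6% of this window is masked as repeat in the reference.
Msi2 ESRRB: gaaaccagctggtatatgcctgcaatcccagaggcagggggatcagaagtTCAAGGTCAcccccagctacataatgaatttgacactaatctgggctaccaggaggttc
The octamer ATGCAAAT lay 26 bases from the midpoint of a peak in the second intron of Sgms1, the gene of a sphingomyelin synthase, on the minus strand at chr19:32318478-32318585.
Sgms1 octamer: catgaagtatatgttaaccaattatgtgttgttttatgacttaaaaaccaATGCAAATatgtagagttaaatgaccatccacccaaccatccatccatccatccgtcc
The SOX motif CCATTGTT came from a peak in Nr5a2, which encodes a nuclear receptor, on the minus strand at chr1:136940398-136940505. The midpoint of this peak lies in the sixth intron. The peak also touches an exon, and the match is 115 bases from the midpoint, so the match itself need not be intronic.
Nr5a2 SOX: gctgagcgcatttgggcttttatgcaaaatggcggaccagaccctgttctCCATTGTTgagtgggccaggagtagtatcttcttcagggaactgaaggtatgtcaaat
The KLF motif GGGNGTGG came from intron 3 of Tcf7l1, which encodes an HMG-box repressor of Wnt target genes, on the plus strand at chr6:72677948-72678055.
Tcf7l1 KLF: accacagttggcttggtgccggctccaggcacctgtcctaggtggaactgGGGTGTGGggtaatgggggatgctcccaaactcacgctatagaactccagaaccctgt

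The other 2 windows are the central 200 bases of CpG islands, printed on the plus strand with each CG in capitals. The island with the highest ratio of observed to expected CpG, at chr7:4507853-4508052, lies in a peak centred in the eleventh intron of Tnnt1, a troponin gene. It is a run of TG and CG repeats, and 93.5% of the window is masked. The island in the eleventh intron of Kcnq1, a potassium channel gene, at chr7:143295703-143295902, has no masked base in this window and was chosen after its values were seen.
Tnnt1 island: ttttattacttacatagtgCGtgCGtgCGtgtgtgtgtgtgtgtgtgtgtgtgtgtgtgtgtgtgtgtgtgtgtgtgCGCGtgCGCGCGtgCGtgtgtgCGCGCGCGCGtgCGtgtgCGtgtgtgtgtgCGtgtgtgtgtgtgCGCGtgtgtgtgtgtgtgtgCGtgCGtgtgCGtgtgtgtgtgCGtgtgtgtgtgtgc
Kcnq1 island: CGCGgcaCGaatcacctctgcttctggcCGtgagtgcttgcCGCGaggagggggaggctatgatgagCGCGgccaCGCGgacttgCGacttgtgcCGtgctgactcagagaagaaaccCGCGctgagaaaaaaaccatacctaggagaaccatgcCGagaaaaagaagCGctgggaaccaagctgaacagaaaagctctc

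Later-intron peaks lay in long genes, at distances from the TSS that followed in part from where later-intron sequence lies. The median distance from the peak midpoint to the TSS of the host gene was 54.5 kb (quartiles 23.1 and 123 kb). Of the 3466 peaks, 302 (8.71%) were under 10 kb from that TSS, where 8.19% of later-intron sequence lies. A further 1052 (30.4%) were over 100 kb from it, where 45.0% of that sequence lies. The intron that held a peak had a median length of 12.7 kb, against 1.26 kb for all later introns of coding genes. The first median counts an intron once per peak and the second counts each intron once. Positions spread evenly over later-intron sequence would also fall mostly in long introns, so this contrast does not show a preference for them. The median position was 60.8% of the way along the host gene. The second intron held the most peaks, 817 (23.6%), and the last intron held 351 (10.1%). Of the 3466 peaks, 1169 (33.7%) touched an exon of some coding or lincRNA transcript although their midpoints were intronic.

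Relative to the sequence available, the density fell slightly along the order of introns. Later introns outside TSS windows covered 644 Mb of the autosomes and held 5.39 peaks per Mb (95% Poisson interval 5.21 to 5.57). First introns held 6.37 per Mb (6.04 to 6.71) and intergenic sequence 4.06 (3.96 to 4.17). The second introns held 6.09 per Mb (5.69 to 6.51), introns 6 to 9 held 5.27 (4.87 to 5.70) and introns from the twentieth on held 4.76 (4.22 to 5.35), so the intervals of the second and the last of these did not overlap. Among autosomes the density ran from 3.83 per Mb on chromosome 13 up to 8.34 on chromosome 16. These intervals, and those of shares given below, cover counting error only and treat each peak as separate, although neighbouring peaks of 1 gene share their surroundings.

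The peaks were spread over many genes. Of the 16823 coding genes with later-intron sequence, 2321 held at least 1 later-intron peak, which is 13.8% of them. A single peak was found in 1648 of these genes, 2 peaks in 403, 3 or 4 in 204 and 5 or more in 66, and the last group together held 422 peaks. For 55 peaks the midpoint lay in later introns of more than 1 gene, and these were counted for each. The host genes were long, with a median span of 76.6 kb against 23.0 kb for all 16823 genes. A longer gene also offers more sequence in which a peak can lie.

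Msi2 (ENSMUSG00000069769.13, chr11:88339382-88718229) held 19 later-intron peaks, the most of any gene but Fgfr2. They were 286 to 9683 bp wide (median 1830 bp) and lay between 26.0 and 350 kb from its TSS, at a density of 51.1 per Mb of later intron. Of these, 10 lay in the fifth intron, 6 in the sixth, 1 in the seventh and 2 in the tenth. At their midpoints, 5 of the 19 peaks held the KLF motif, 2 the ESRRB motif, 2 the SOX motif and 1 both the octamer and the OCT4-SOX2 core. The promoter of Msi2 also overlapped a peak of the list.

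The count was higher still for Fgfr2, a receptor of fibroblast growth factors, but it rested on a single annotated transcript. The longest coding transcript of Fgfr2 in GENCODE M21 spans 2961 kb (chr7:130162451-133123350), whereas the next longest spans 104 kb, as does the gene in RefSeq. All 28 of its later-intron peaks lay in a second intron of 2909 kb, none inside the RefSeq span of the gene, and 15 of them inside the span of another coding gene. With the longest transcript chosen by summed exon length, Fgfr2 held 0 later-intron peaks. Across all later-intron peaks, the host had an entry of the same symbol in RefSeq for 3408, and the midpoint lay inside that span for 3342 of these. In this comparison a peak with several hosts was placed with 1 of them. Fgfr2 accounted for 17 of the 66 that lay outside, and the other 11 of its 28 peaks were placed with another host.

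The other genes with the most later-intron peaks encode proteins of varied function. Pakap held 11 peaks, and 7 peaks counted for Akap2, an anchoring protein of protein kinase A, lay where both genes overlap. Plekha7, which encodes a protein of adherens junctions, held 10 peaks of at most 2918 bp. Sgms1 also held 10, of 287 to 8871 bp. Palld, the gene of the actin-associated protein palladin, held 10 between 35.6 and 368 kb from its TSS, and Etl4 held 10 between 267 and 783 kb. Slc12a8 of the cation-chloride cotransporter family held 9 (64.6 per Mb). Dlgap1, a scaffold gene of the postsynaptic density, held 9, all between 708 and 840 kb from its TSS. Mtcl1, which encodes a protein that crosslinks microtubules, held 8 in only 93.5 kb of later intron (85.5 per Mb). With transcripts chosen by summed exon length, Plekha7 held 4 in place of 10, whereas Msi2 held 19 and Pakap, Sgms1, Palld, Etl4, Slc12a8, Dlgap1 and Mtcl1 held at least 8 each.

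**Figure D1:**
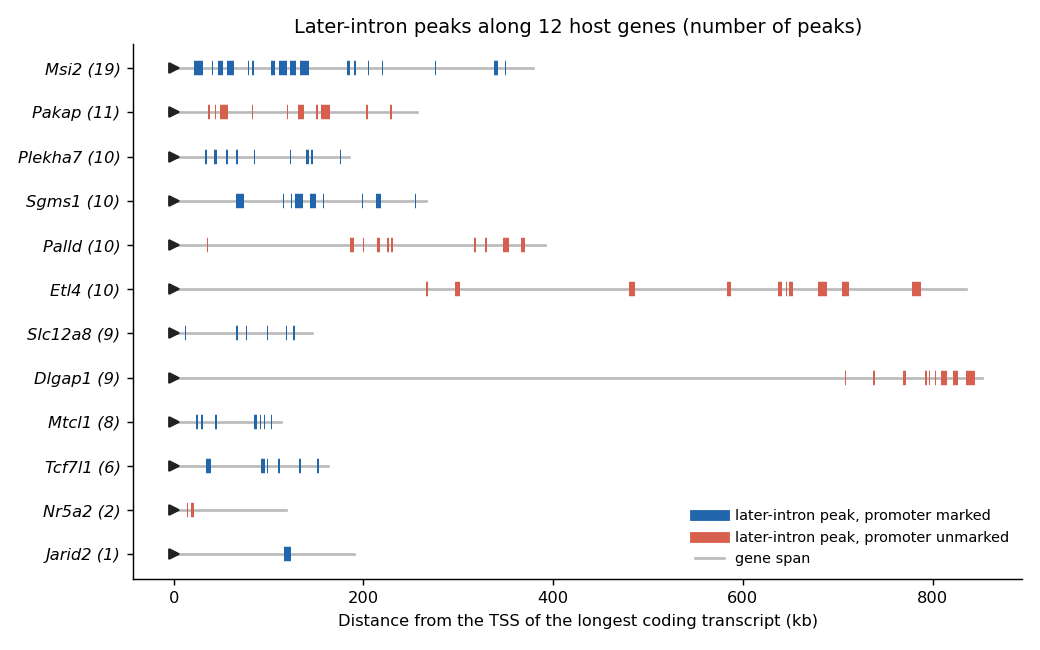
Positions of later-intron peaks along 12 genes, 9 of the 10 with the most peaks (all but Fgfr2) and the 3 pluripotency genes with one. The x axis is the distance from the TSS of the longest coding transcript in kb, each block is a peak drawn to its width, and blue and red mark genes whose promoter overlapped a peak or did not. The 19 peaks of Msi2 start at 26.0 kb, whereas the 9 of Dlgap1 lie at 708 kb or farther.

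Among genes of the pluripotency network, later-intron peaks were found in Tcf7l1, Nr5a2 and Jarid2. These were 3 of the 34 listed genes with later-intron sequence (8.82%, 95% Wilson interval 3.05 to 23.0%), and the interval includes the 13.8% of all coding genes. Tcf7l1 held 6 peaks of 792 to 5800 bp, 5 in intron 3 and 1 in intron 4, at 36.6 to 152 kb from the TSS, and 2 of them held the KLF motif. Nr5a2 held 2, at 14.6 and 20.1 kb, and Jarid2, a subunit of Polycomb repressive complex 2, held 1 of 8342 bp at 120 kb with the low GC content of 29.8%. The 34 genes are short in this respect, with a median of 7.08 kb of later intron against 12.6 kb over all genes. Per Mb of later intron the list held 12 peaks (5.50 to 22.8) against 5.48 over all genes, on 9 peaks in all. Without Tcf7l1, which holds 6 of them, it was 5.09 per Mb (1.05 to 14.9). Of 40 listed autosomal genes, 26 (65.0%) held the midpoint of some peak of the list, against 43.8% of all 20722 autosomal coding genes. A peak of 10000 bp or more, which the rule leaves out, was centred in 19 of the 40 (47.5%, against 4% of all). Promoters marked by a peak of any width were found in 26 of the 34 (76.5%) and in 55.6% of all coding genes with later introns. Esrrb held 3 first-intron peaks, 1 promoter peak and 2 broad ones, and no later-intron peak.

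Of the lists of chromatin and signalling genes, those of chromatin regulators, FGF and ERK signalling and Wnt signalling had shares whose intervals lie above the 13.8% of all coding genes. These genes also have more later-intron sequence, with medians of 45.3, 25.2 and 48.4 kb in the same order against 12.6 kb. Of 61 chromatin regulators, 18 held a later-intron peak (29.5%, 19.6 to 41.9%), at 8.36 per Mb (5.79 to 11.7) against 5.48 over all genes. All 18 had a marked promoter, that is, a peak of the list overlapped the window of 1 kb either side of their TSS. So did 53 of the 61 (86.9%). All coding genes with a marked promoter held 7.83 peaks per Mb, which lies inside the interval of the density of chromatin regulators. Arid1b, a subunit of BAF remodelling complexes, held 8, and Chd9, a chromodomain helicase, held 5, all in its second intron. Kdm2b, a histone demethylase that binds CpG islands, held 3. Of 34 genes of FGF and ERK signalling, 11 held one (32.4%, 19.1 to 49.2%). Fgfr1, a receptor of fibroblast growth factors, held 3 in its second intron at 18, 26.4 and 34.3 kb. Without Fgfr2, which accounts for 28 of the 42 peaks of this list, 10 of 33 genes held one, at 13.9 per Mb (7.61 to 23.3). This interval includes the 7.83 per Mb of genes with a marked promoter. Of 29 Wnt signalling genes, 9 held one (31.0%, 17.3 to 49.2%), at 7.20 per Mb (3.59 to 12.9), an interval that includes 5.48. Among them were the co-receptor gene Lrp5 and the kinase gene Gsk3b with 2 each and Tcf7 with 1.

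For the lists of the LIF and TGF-beta pathways, the intervals of the share include 13.8%. Of 25 genes of LIF, JAK and STAT signalling, 4 held 1 peak each (16.0%, 6.40 to 34.7%), among them the kinase gene Jak2, Stat6 and Pias4, which encodes a SUMO ligase. Of 32 genes of Nodal, TGF-beta and BMP signalling, 3 held one (9.38%, 3.24 to 24.2%). These were Smad6, an inhibitory SMAD, and the co-receptor gene Tgfbr3 with 2 each, and the receptor gene Bmpr2 with 1. These intervals overlap those of the chromatin, FGF and Wnt lists.

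In genes of neuronal adhesion and guidance, later-intron peaks were frequent by count of genes and sparse by length. Of 52 genes of neuronal adhesion and guidance, 20 held one (38.5%, 26.5 to 52.0%), the highest share of the 11 lists, yet their density was 1.39 per Mb (1.01 to 1.87), the lowest of the lists with a peak. The median gene of this list had 503 kb of later intron, and only 5 of the 52 had a marked promoter. Cntnap2, a neurexin-family adhesion gene, held 6 peaks between 2050 and 2234 kb from its TSS, and Slit3, a guidance cue, held 5. Both had an unmarked promoter at the longest transcript. The promoter of another coding transcript was marked for Cntnap2, and for Slit3 none was. Of 83 collagen, laminin and integrin genes, 16 held one (19.3%, 12.2 to 29.0%), at 3.06 per Mb (1.89 to 4.67). Of 99 voltage-gated and potassium channel genes, 19 did (19.2%, 12.6 to 28.0%), at 3.35 per Mb (2.30 to 4.70). The intervals of both shares include 13.8%, and those of both densities lie below 5.48 per Mb. Cacna1a, a calcium channel gene, held 7 peaks and Kcnj6, a potassium channel gene, held 5.

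Genes with little intron sequence held few. None of 272 olfactory receptor genes held a later-intron peak, with 1.39% as the upper end of the interval, and they have 0.578 Mb of later intron in all. The rule of symbols for cytosolic ribosomal proteins found 76 genes with later introns, of which 3 held a peak, but all 3 (Rps6ka1, Rps6ka2 and Rps6kl1) are S6 kinase genes that the symbols also match. Without the 8 S6 kinase genes, 0 of 68 held one, which allows a share of up to 5.35%.

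**Figure D2:**
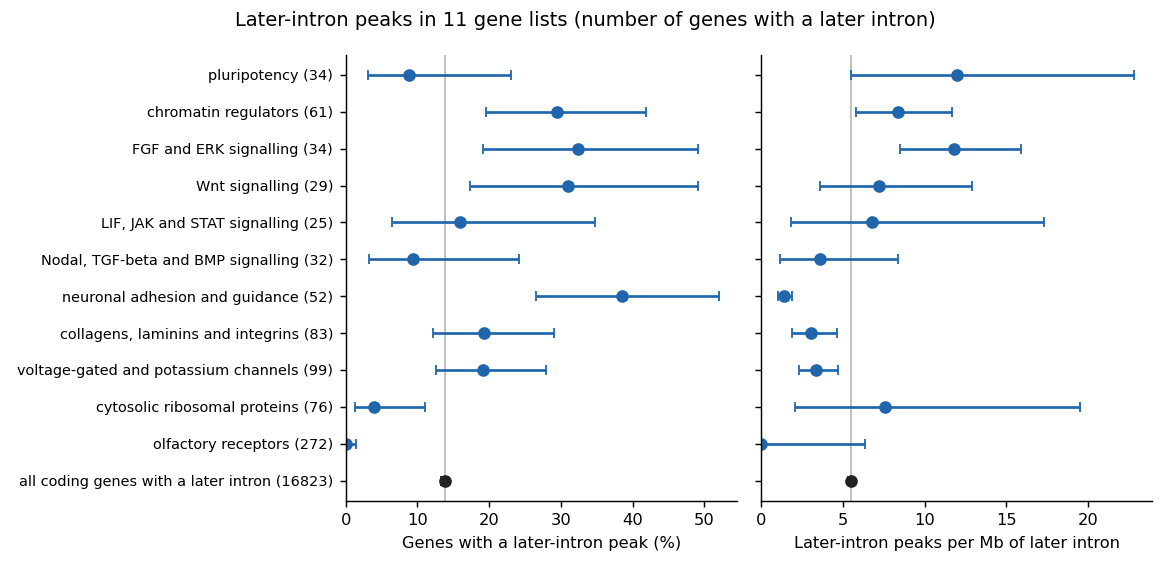
Share of genes with a later-intron peak (left, in percent with 95% Wilson intervals) and peaks per Mb of later intron (right, with 95% Poisson intervals) in 11 gene lists and in all 16823 coding genes, whose value the grey line carries down. The neuronal list has the highest share, 38.5%, and the lowest density above 0, 1.39 per Mb.

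Genes with a marked promoter held more later-intron peaks. Of the 2321 host genes, 1608 had a marked promoter (69.3%, 67.4 to 71.1%), against 55.6% of all 16823 coding genes with a later intron. Put the other way, 17.2% of genes with a marked promoter (16.5 to 18%) and 9.54% of those without (8.89 to 10.2%) held a later-intron peak. With genes grouped by their length of later intron, the intervals of these shares did not overlap in any group from 5 to 500 kb. In genes with 50 to 100 kb of later intron, 39.2% with a marked promoter (36.2 to 42.3%) and 19.8% without (16.8 to 23.3%) held one. The density was 7.83 per Mb in genes with a marked promoter and 3.21 in the rest, a ratio of 2.44 (2.27 to 2.62). Without Fgfr2 the ratio was 2.43. Promoter and intron peaks come from the same list, so a chromosomal region with more peaks of every kind adds to both, and its part in the ratio was not tested.

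The ratio was above 1 from 5 to 500 kb from the TSS. In genes with a marked promoter the density was 9.15 per Mb at 5 to 10 kb and 9.42 at 10 to 20 kb, was still 8.84 at 50 to 100 kb, and was 5.97 at 200 to 500 kb. In genes without one it was 5.29, 4.75, 3.76 and 2.13 per Mb over the same distances. The ratio of these densities was 1.73 (1.32 to 2.27) at 5 to 10 kb and 2.81 (2.30 to 3.43) at 200 to 500 kb. Without Fgfr2 the latter was 2.74 (2.24 to 3.35), and its interval overlapped that at 5 to 10 kb. The TSS window of the host takes up the first 1 kb from its TSS. Within 5 kb of the TSS, the densities of 2.31 and 3.10 per Mb had overlapping intervals. Beyond 500 kb they were 2.62 and 2.15 per Mb, and without Fgfr2, which supplied 18 of the 35 peaks of marked genes there, the first of these was 1.52 and the ratio 0.708 (0.424 to 1.18) in place of 1.22 (0.832 to 1.79).

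**Figure D3:**
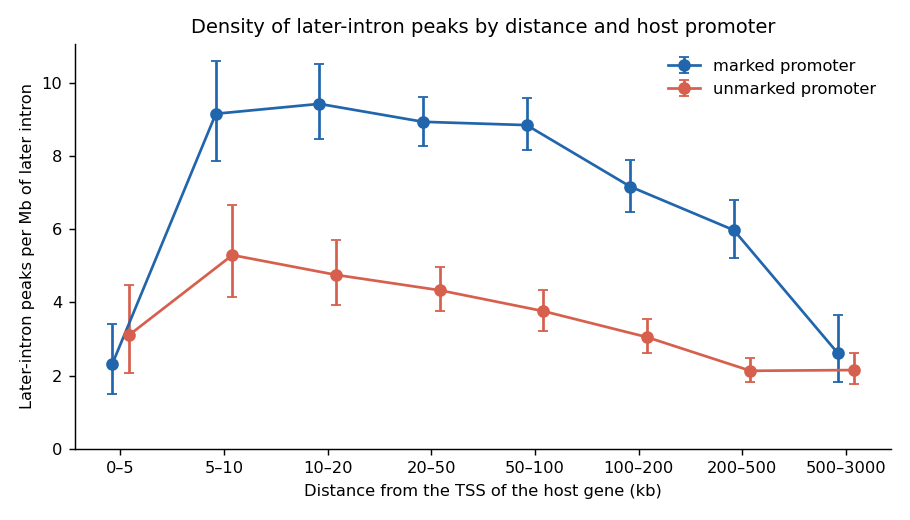
Later-intron peaks per Mb of later intron by distance from the TSS of the host gene in kb, for genes with a marked promoter (blue) and without (red). Bars are 95% Poisson intervals. From 5 to 500 kb the blue points lie above the red ones with intervals that do not overlap, and beyond 500 kb the intervals overlap.

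Some hosts with many peaks had no peak at their annotated start. Of the 66 genes with 5 or more later-intron peaks, 18 had an unmarked promoter, among them Pakap, Palld, Etl4, Dlgap1 and Akap2. For Palld, Etl4 and Akap2 the promoter of another coding transcript was marked. For Pakap and Dlgap1 none was.

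The width of later-intron peaks had a median of 1937 bp (quartiles 1291 and 3498 bp), compared with 1983 bp for first-intron peaks, 1969 bp for intergenic and 1944 bp for promoter peaks. Peaks that touched an exon were wider, with a median of 2509 bp against 1833 bp for those that touched none, which a wider peak meets more easily. The width limit of the rule fell between a peak of 9971 bp in Sh3pxd2a and one of 10026 bp in Irak2. In all, 184 peaks of 10000 bp or more met the rest of the rule, the widest with 65318 bp in Dym. At the limit set by the TSS windows, the nearest peak kept lay 1014 bp from a TSS, in Lamc1, and the farthest removed lay 983 bp from one, in Arhgap23. The windows removed 860 peaks under 10000 bp whose midpoints lay in later introns.

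Later-intron and first-intron peaks had the same median GC content. In 500 bp at the midpoint it was 48.0% in both, a difference of 0 percentage points (interval -0.447 to 0.447). The quartiles were 44.0 and 52.0% in later introns and 44.0 and 51.8% in first introns. By autosome, the median was higher in later-intron peaks on 13 of 19 and lower on 5, with differences from -3.1 to 1.1 points. Intergenic peaks had 47.4% and promoter peaks 58.8%. Windows of the same length in the parts of later introns that no peak or exon covered, 1167421 in all, had a median of 42.0%, which was 6 points lower and lower on 19 of 19 autosomes. The authors kept only peaks near open chromatin, whereas the windows were not chosen by that filter, so this contrast is not matched for open chromatin. The rise in GC content was narrow. The mean was 48.0% within 100 bp of the midpoint, 45.6% at 900 to 1100 bp and 45.1% at 2500 to 3000 bp. Peaks under 10 kb from the TSS had a median of 49.8%, and those 200 kb or more away 46.8%.

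**Figure D4:**
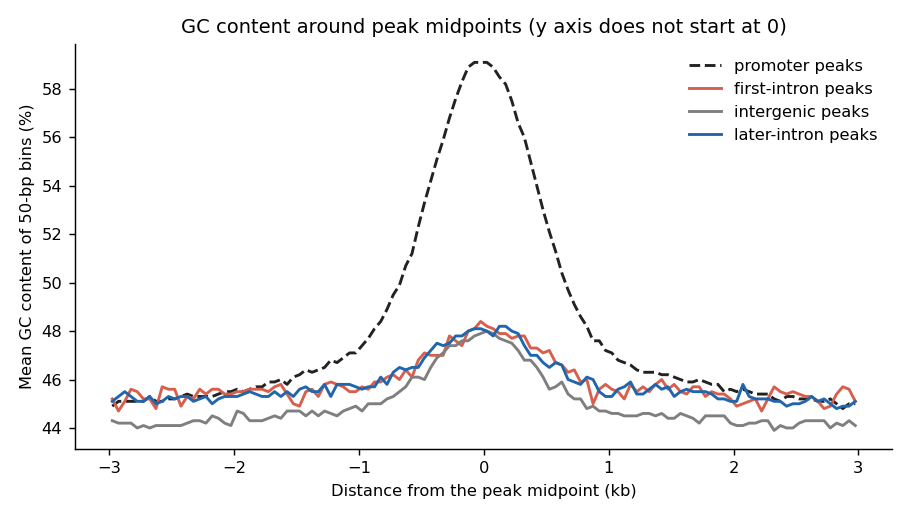
Mean GC content in bins of 50 bp, in percent, against distance from the peak midpoint in kb, for later-intron (blue), first-intron (red), intergenic (grey) and promoter peaks (dashed). The axis does not start at 0. The blue and red lines rise together from about 45% to 48%, and the dashed line reaches 59.0%.

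Few later-intron peaks held a CpG island, taken as 500 bp of at least 55% GC with a ratio of observed to expected CpG of at least 0.65. There were 89 (2.57%, 2.09 to 3.15%), compared with 28 of 1417 first-intron peaks (1.98%), 5.47% of intergenic peaks and 81.6% of promoter peaks. This search covered the whole peak in steps of 20 bp, so a wider peak had more chances of a match. In the 500 bp at the midpoint alone, a search chosen after seeing the data, 33 later-intron peaks (0.952%, 0.679 to 1.33%) met both limits, as did 15 first-intron peaks (1.06%) and 0.0298% of peak-free windows, which hold no exon. Among the 2297 later-intron peaks that touch no exon, 16 did (0.697%, 0.429 to 1.13%). Of the 89, 60 touched an exon, 43 lay within 1 kb of the start of a transcript of a type the rule did not use, and 16 met neither condition. In 3, repeats masked at least 50% of the island, as in Tnnt1, and in 29 none of it was masked.

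Of these islands, 3 lie at the starts of antisense RNAs of imprinted genes, and they were named after their values were seen. The island in Kcnq1 printed above is in a peak of 3487 bp at chr7:143294573-143298059, 189 kb from the Kcnq1 TSS, which covers the start of Kcnq1ot1, the noncoding RNA that silences genes of this cluster in cis. The second intron of Igf2r held a peak of 128 bp at chr17:12741595-12741722 by the start of Airn, which silences Igf2r. The third was a peak of 4930 bp in Gnas by the start of Nespas. Of all later-intron peaks, 68 (1.96%) lay within 1 kb of the start of an antisense gene, 37 (1.07%) of that of a miRNA or other short RNA, and 429 (12.4%) of that of a transcript of another type of a coding gene. For 565 (16.3%, 15.1 to 17.6%) some such start was within 1 kb.

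Motifs of transcription factors of mESCs were more common at the midpoints of later-intron peaks than in peak-free windows of later introns. A match was counted on either strand in 500 bp at the midpoint, and since the list gives no summit, the midpoint need not be the point of highest signal. The KLF motif GGGNGTGG was in 888 peaks (25.6%, 24.2 to 27.1%) and in 11.1% of the windows, a difference of 14.6 points (13.1 to 16.0). The ESRRB motif TCAAGGTCA, which the Msi2 window above carries, was in 106 peaks (3.06%) and 1.14% of windows, a ratio of 2.68. The OCT4-SOX2 core TTGTNATGC was in 87 peaks (2.51%) and 1.36% of windows, a ratio of 1.85. The STAT motif TTCCNGGAA was in 67 (1.93%) and 1.21%. Among intergenic peaks, 24.1% held the KLF motif, 3.3% the ESRRB motif, 3.22% the OCT4-SOX2 core and 2.47% the STAT motif. Among promoter peaks these shares were 25.7%, 1.34%, 0.557% and 1.68% in the same order. At least 1 of these 4 motifs, the octamer or the SOX motif was in 1238 peaks (35.7%, 34.1 to 37.3%) and in 19.6% of windows.

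For the octamer and the SOX motif the interval of the difference included 0, and it depended on the windows and matches used. The octamer ATGCAAAT was in 134 peaks (3.87%) and 3.82% of windows, with a difference of 0.0458 points (-0.548 to 0.741), and the SOX motif CCATTGTT was in 2.86% and 2.44% (interval of the difference -0.0879 to 1.03 points). Both motifs are rich in A and T, and the windows were poorer in GC than the peaks. Against windows between the GC quartiles of the peaks, the difference was 1.53 points for the octamer (0.931 to 2.22) and 0.816 for the SOX motif (0.310 to 1.43). With masked matches left out and no matching on GC content, it was 0.758 points for the SOX motif (0.301 to 1.32), and the interval for the octamer was -0.00695 to 1.10. With peaks of at least 1 kb it was 0.682 points for the SOX motif (0.106 to 1.38). When all windows were weighted to the GC content of the peaks, an alternative chosen after seeing the data, their share of the octamer was 2.46% and of the SOX motif 2.03%, and the ratios were 1.57 and 1.41. With the same weights the ratio was 1.52 for KLF in place of 2.32, 2.46 for ESRRB and 2.22 for the OCT4-SOX2 core.

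Of the 7 motifs of other factors, 6 were more frequent in the peaks than in the windows beyond the interval of the difference. The CTCF core AGGGGGCGC was in 17 peaks (0.490%) and 0.0696% of windows, a ratio of 7.04, or 3.12 with weighted windows. The ETS motif CCGGAAGT was in 36 (1.04%) and 0.263%, and the NRF1 motif GCGCATGCG in 11 (0.317%) and 0.0655%. The E-box CACGTG (8.89% and 5.42%), the AP-1 motif TGACTCA (10.5% and 8.08%) and the TEAD motif ACATTCC (8.63% and 6.71%) had lower ratios, 1.64, 1.30 and 1.29 in this order. Weighting brought the ratio from 3.95 to 2.65 for ETS, from 4.84 to 2.96 for NRF1 and from 1.64 to 1.26 for the E-box. The YY1 motif AAGATGGCG was in 17 peaks (0.490%) and 0.322% of windows (interval of the difference -0.0160 to 0.462 points). With weighted windows at 1.03% its ratio turned to 0.476. With masked matches left out and no weighting, the YY1 shares were 0.231% and 0.108% (interval of the difference 0.00899 to 0.347 points), a ratio of 2.14.

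Part of the matches lay in repeats. Of the 87 peaks with the OCT4-SOX2 core, 35 (40.2%) held it only in bases that the reference masks as repeat, against 19.7% of the windows with a match. With masked matches left out in both, the shares were 1.5% and 1.09% (interval of the difference 0.054 to 0.871 points), a ratio of 1.37. For ESRRB, 46.2% of the peaks and 46.6% of the windows with a match held it only in masked bases, and the ratio without these was 2.70. For KLF these were 43.7% and 55.9%, and the ratio was 2.96.

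First-intron peaks did not differ from later-intron peaks in any of the 13 motifs beyond the 95% interval of the difference. The ESRRB motif was in 2.61% of first-intron peaks, a difference of 0.447 points (-0.653 to 1.4), and the OCT4-SOX2 core in 1.91%, a difference of 0.605 points (-0.369 to 1.43). The intervals do not show that the classes are alike, since for the OCT4-SOX2 core they leave room for a difference as large as 1.43 points. Motifs were also denser near the midpoint than in the flanks of the same peaks, with ratios from 1.14 for TEAD to 2.92 for the CTCF core. The latter rests on 38 matches near the midpoint and 13 in the flanks. GC content rose toward the midpoint as well, and its part in these ratios was not tested. The ESRRB motif had 5.63 matches per 1000 peaks and 100 bp within 500 bp of the midpoint and 3.00 at 1500 to 2000 bp, and the OCT4-SOX2 core had 4.59 and 2.57.

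**Figure D5:**
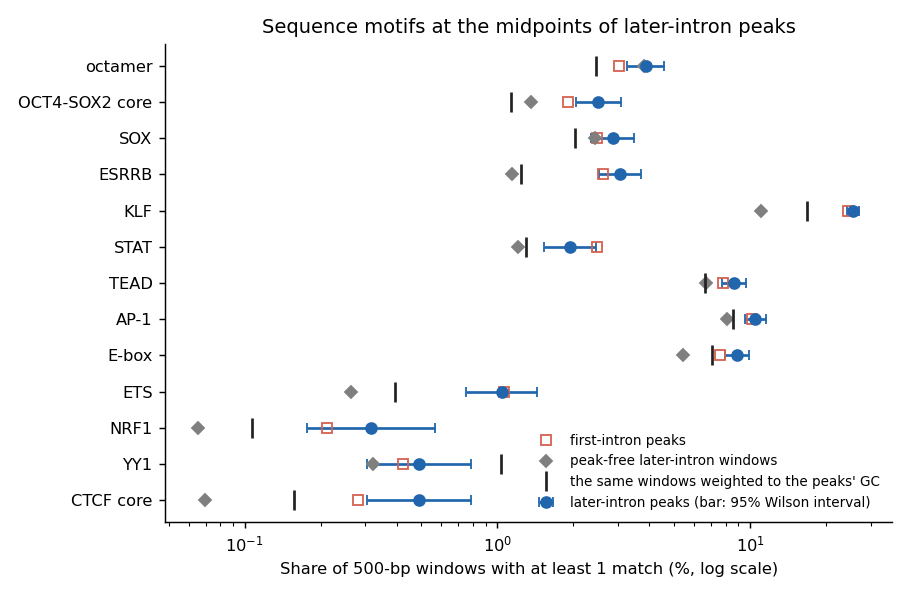
Share of 500-bp windows with at least 1 match of each of 13 motifs, in percent on a log axis, for later-intron peaks (blue, with 95% Wilson intervals), first-intron peaks (red squares), peak-free later-intron windows (grey diamonds) and these windows weighted to the GC content of the peaks (black bars). KLF is the most frequent at 25.6%, and the octamer, SOX and YY1 are the motifs whose blue interval includes the grey point.

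Other later-intron peaks were the most common nearest neighbours. The median gap to the nearest peak of the list was 13.3 kb (quartiles 5.44 and 33.4 kb), compared with 8.22 kb for first-intron peaks, 12.1 kb for intergenic ones and 15.6 kb for promoter peaks. A neighbour lay within 12.5 kb for 47.8% of later-intron peaks, 62.5% of first-intron, 50.7% of intergenic and 42.9% of promoter peaks. The nearest peak was another later-intron peak for 1434 (41.4%), a promoter peak for 1248 (36.0%) and a peak of 10000 bp or more for 274 (7.91%).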

How the data were processed

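H3K27ac ChIP-seq had been done in 2 control, 2 NVP-2 and 2 ActD samples, grouped here by their labels. The deposited list of control peaks was used, 1 list for both control replicates, in which the authors give chromosome, start and end of each peak in mm10 and no height, score or count. Its values are positions in bp, so the reads behind each peak are not known here and no test over samples was possible; the read totals that the study states per library were not used here. Before deposit, per the methods, adapters were cut with Cutadapt, bwa meme placed the reads on mm10 combined with a human genome, duplicates were dropped with Picard (2.9.1) and low mapping qualities with SAMtools (1.4). LanceOtron then called the peaks, those within 2 kb were merged, and the authors kept peaks above height limits and close to ATAC-seq summits. Tables of peak changes were not used here.

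Peaks were placed on GENCODE M21 (GRCm38, an earlier release than the one the study names) with 67283 coding and lincRNA transcripts of 27706 genes, the longest coding transcript by genomic span standing for a gene. A promoter was marked if a peak overlapped 1 kb either side of its TSS. Sequence came from the GRCm38 RefSeq assembly, in which lower case marks repeats. GC content and motifs were read in 500 bp at the midpoint and in 500-bp windows tiled over later-intron sequence without peak or exon. Shares have 95% Wilson intervals, differences of shares Newcombe intervals, densities exact Poisson intervals and medians order-statistic intervals. All cover counting error only. No p-value was computed.

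The 11 gene lists, the 13 motifs and the peaks themselves were chosen with earlier results of these data known. Named genes are the 10 with the most peaks, every pluripotency gene with a peak, the top 3 of each other list and up to 6 genes with 5 or more peaks and an unmarked promoter; 1 gene and 1 further list are not reported here. The functions were tested on simulated data. Versions were Python 3.11.15, pandas 2.3.3, matplotlib 3.10.9, scipy 1.17.1 and numpy 2.4.6.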

Additional observations from a re-analysis of the deposited data

How the results depend on the processing

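No paired analysis was possible because both control replicates share 1 pooled peak list, and for the same reason no replicate could be left out. The number of later-intron peaks was 3037 to 3650 under 6 other settings and 2884 with peaks of at least 1 kb, and was 2297 with peaks that touch no exon. Median GC content was 47.6% with peaks of at least 1 kb, 48.5% in 200 bp, 47.4% in 1000 bp and 47.5% over whole peaks. Median width was 1833 bp for peaks that touch no exon, 1992 bp with no upper limit and 2260 bp with peaks of at least 1 kb. The density ratio was 2.76 with the promoter of any coding transcript. The difference from peak-free windows was, in windows of 200 bp, 0.565 points for the OCT4-SOX2 core, 0.675 for ESRRB and 6.17 for KLF, and in 1000 bp it was 1.77, 3.17 and 20.1 points. It was 0.409, 1.04 and 9.55 points without masked matches. For the E-box it was 1.71 points against windows between the GC quartiles of the peaks and 1.82 with weighted windows, in place of 3.47. For KLF it was 9.26 and 8.80 points in the same order. Of the 13 motifs, all but the octamer and YY1 stayed above the windows in 14 of 14 alternatives, whereas the octamer did so in 11 (-0.305 to 1.53 points) and YY1 in 13, with -0.539 points against weighted windows. By density in place of share, the pluripotency list was 2.19 times all coding genes in place of 0.640 (0.928 without Tcf7l1), the neuronal list 0.254 in place of 2.79, and the ribosomal list 1.39 in place of 0.286, the last on S6 kinase genes alone. The weighted windows, the masked matches, the island search at the midpoint and the settings without Fgfr2, Tcf7l1 or S6 kinases were chosen after seeing the data. The list gives no reads per peak, so the limits set by depth were not assessed.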
